A study of Mus musculus with 4 samples.

Results

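The genes described here are 42 genes of mitosis: kinases, cyclins, kinesins, and genes of the kinetochore, the spindle, anaphase and cytokinesis. They were chosen by name, and read from the array probe sets that the platform annotation assigns to a single gene among them. Of these, 41 genes had such a probe set, 95 probe sets in all, out of 18193 genes with a single-gene probe set on the array. Ccnb1, which encodes cyclin B1, was not analysed here. The 2 ureter tumor samples and the 2 normal ureter samples came from mice of C57Bl/6 background aged 6 to 8 weeks, and each was hybridized to 1 Affymetrix Mouse Genome 430 2.0 array. The labels call the tumors urothelial carcinoma and the tissue ureter epithelium. All 4 samples carry the same treatment text, which describes R26rtTA;teto-Cre;Ncstnf/f mice given doxycycline for 1 week from 3 weeks of age. In such mice doxycycline switches on Cre recombinase, which deletes Ncstn, the gene of a subunit of the enzyme that activates Notch receptors. The R26 locus that drives the system is active in most cell types, and which samples carried which alleles is not stated in the labels.

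In mitosis the cell separates its copied chromosomes into daughter cells. Cyclin A and the B cyclins activate the kinase Cdk1, the chromosomes attach to the spindle through their kinetochores, and a checkpoint holds the cell until every kinetochore is attached. The anaphase-promoting complex, an enzyme that marks proteins for destruction, then removes securin and cyclin B, and the daughters part by cytokinesis. Many of these genes are transcribed mainly in the G2 and M phases, so their transcripts are widely used as a measure of how many cells in a tissue divide. Normal adult urothelium divides slowly.

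Every value is a deposited MAS5 signal, Affymetrix's summary of the probes of one probe set, scaled to the same trimmed mean of 500 on each array. The ratio of 3' to 5' signal of Gapdh, which moves with RNA integrity, stood at 1.51 and 1.44 on the tumor arrays, against 0.92 and 0.923 on the normal arrays. That of Actb ran the other way, at 2.47 and 2.63 on the tumor arrays, against 2.90 and 2.82 on the normal arrays. Differences are of log2(signal + 16), tumor minus normal, from a limma fit over the 13046 genes whose mean reached a filter signal of 54.6. The p-values are two-sided and adjusted by the Benjamini-Hochberg method over all of these genes, and the threshold was 0.05. Replicates are called biological in the labels, but no animals are named, so a p-value reflects only how far these particular samples spread. In bulk tissue, fewer cells of a type and less RNA per cell cannot be told apart.

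Nearly all of the mitosis genes were brighter on both tumor arrays than on both normal arrays, and securin was the exception. In 37 of the 41 genes the lower tumor array exceeded the higher normal array, in 3 the groups overlapped (Foxm1, Spag5 and Anln), and in Pttg1, which encodes securin, both tumor arrays lay below. Among all genes tested, 29.4% had both tumor arrays above both normal arrays and 27.7% had both below. Pttg1 alone passed the limma threshold, and it fell. So 0 of the 38 mitosis genes tested were called higher and 1 was called lower, where 0.491% of all genes tested were called higher and 0.943% lower. At an unadjusted p under 0.05, 24 of the 38 were higher and 1 was lower, where 10.6% of all genes were higher and 10.9% lower. These counts rested on single arrays. A fit with 1 array left out assumes that the group with 1 array varies like the other group. The count of calls from such a fit therefore depends on which pair is left. The median difference of the mitosis genes was 1.12 with tumor replicate 1 left out and 1.90 with tumor replicate 2 left out. Leaving out normal replicate 1 gave 1.45, and leaving out normal replicate 2 gave 1.47.

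With all arrays, the sizes were larger than the count of calls. The median difference of the 38 genes was 1.49, beside 0.03 over all genes tested. Of the 38, 31 had a positive difference of at least 1, a doubling, where 11% of all genes did, and 9 had one of at least 2. The adjusted p-values of the genes that did not pass began at 0.0922. A total of 9 of the 38 (Birc5, Kif2c, Kif11, Cenpe, Plk1, Bub1, Melk, Aurkb and Aurka) had a normal mean under the filter signal and entered the fit only through their tumor arrays, so these counts and this median do not stand for the whole group. The other 29 had a median of 1.32, and 25 of them had each tumor array above each normal array. With no filter, the median of the 41 genes was 1.49.

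**Figure D1:**
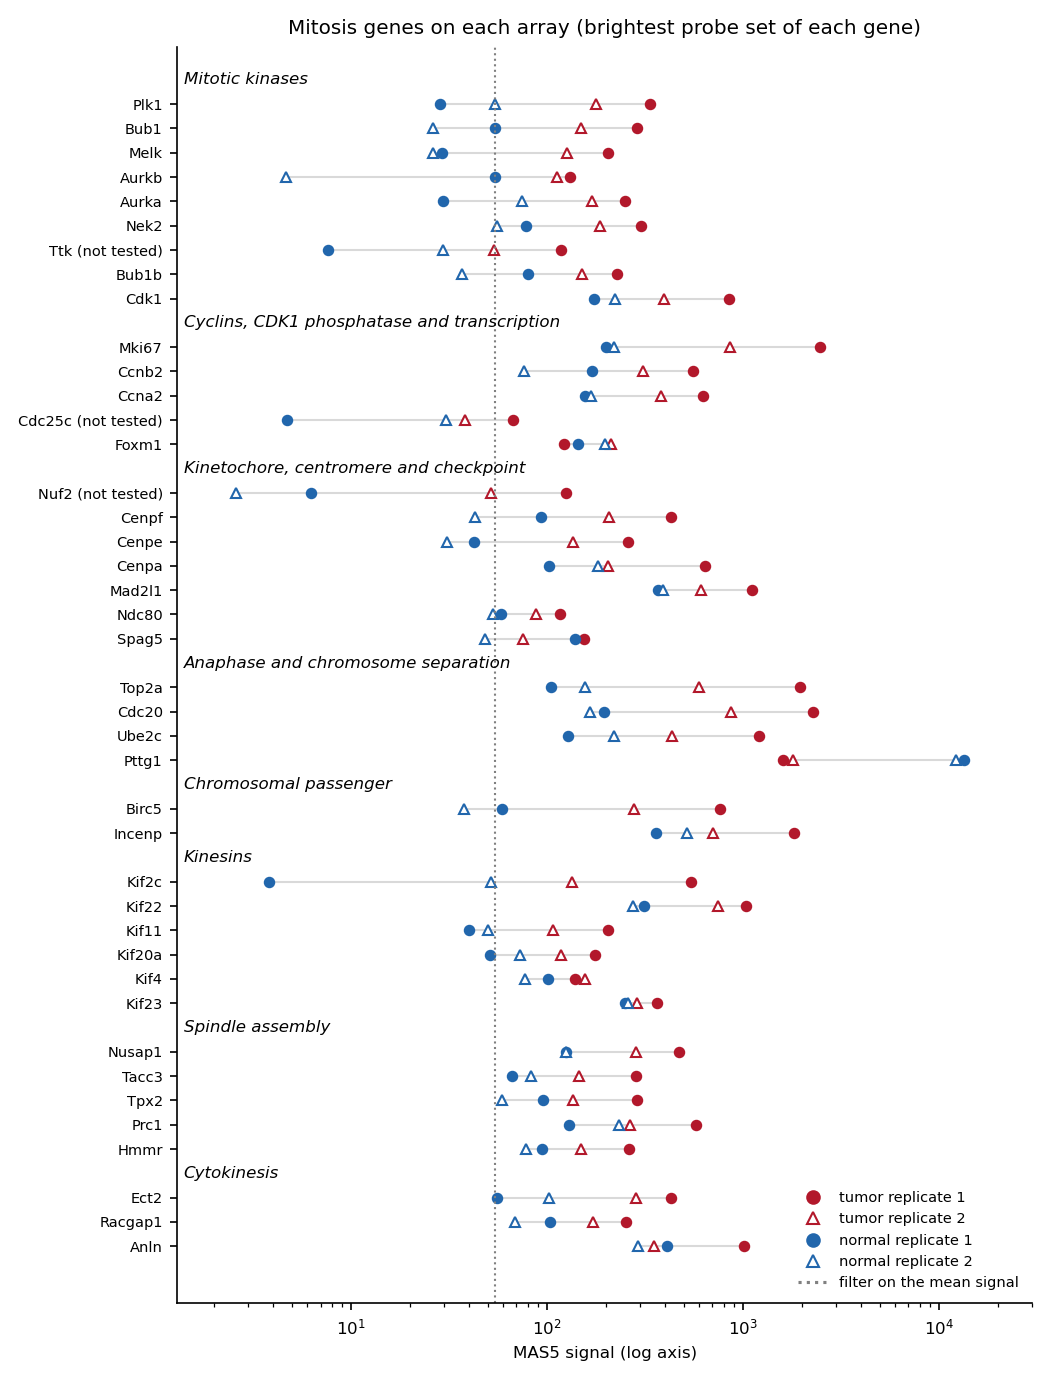
MAS5 signal of 41 mitosis genes on each array, on a log axis, grouped by role, with the largest difference first in each group. Red symbols are tumor arrays and blue symbols normal arrays, circles are replicate 1 and triangles replicate 2, and the dotted line is the filter signal of 54.6. Red symbols lie right of blue ones in 37 genes, and Pttg1 has its 2 tumor values far to the left of its 2 normal values.

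Promoters of these genes are known to carry the CHR, an element bound by the complexes that hold mitotic genes silent in resting cells and switch them on in G2, often beside CCAAT boxes. The RefSeq promoter table of build GRCm38.p6, which holds the 250 bases before and 50 bases after a gene's start, had 37 windows for 35 of the mitosis genes. The CHR words TTTGAA or TTCGAA, searched on both strands, stood in 27 of the 37 windows (73.0%), against 13.9% of the 13402 windows of genes tested. Within 50 bases of the start they stood in 25 of the 37 windows (67.6%), against 3.51% of the windows of genes tested. CCAAT stood in 27 of the 37 (73.0%), against 36.9%. A CHR word together with CCAAT stood in 24 (64.9%), against 5.38%. The word TTCCCGC, one form of the site of E2F factors, stood in 0 of the 37, against 7.69%. Overlapping matches were allowed and each window was counted once. A match of letters is a description of the window and not a site shown to be bound.

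Among the tested genes in the table, the 24 with a CHR word had differences with a median of 1.52, and the 8 without one a median of 1.53. The 2 medians lay close together, and no test between them was made. The 250 bases before the start are shown for the 3 genes with the largest differences whose window holds a CHR word, and for Pttg1, picked because it fell. All 4 lie on the minus strand and are written 5′ to 3′ along the gene, with CHR words and CCAAT boxes of either strand in capitals.
Kif2c, chr4:117178773-117179022: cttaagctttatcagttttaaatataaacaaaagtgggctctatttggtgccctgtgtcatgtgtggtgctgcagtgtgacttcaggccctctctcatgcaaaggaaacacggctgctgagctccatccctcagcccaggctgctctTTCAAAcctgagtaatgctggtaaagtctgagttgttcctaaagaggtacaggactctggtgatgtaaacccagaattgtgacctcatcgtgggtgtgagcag
Top2a, chr11:99024190-99024439: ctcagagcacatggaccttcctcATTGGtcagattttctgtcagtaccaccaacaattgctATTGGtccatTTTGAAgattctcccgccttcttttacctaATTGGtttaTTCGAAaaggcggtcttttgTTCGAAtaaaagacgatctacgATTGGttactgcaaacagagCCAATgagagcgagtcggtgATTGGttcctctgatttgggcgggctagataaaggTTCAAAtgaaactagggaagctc
Cdc20, chr4:118437344-118437593: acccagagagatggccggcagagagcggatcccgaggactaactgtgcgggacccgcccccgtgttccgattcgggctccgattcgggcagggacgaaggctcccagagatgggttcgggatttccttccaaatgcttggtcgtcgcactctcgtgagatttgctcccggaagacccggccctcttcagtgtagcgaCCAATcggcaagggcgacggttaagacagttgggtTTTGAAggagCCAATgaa
Pttg1, chr11:43425982-43426231: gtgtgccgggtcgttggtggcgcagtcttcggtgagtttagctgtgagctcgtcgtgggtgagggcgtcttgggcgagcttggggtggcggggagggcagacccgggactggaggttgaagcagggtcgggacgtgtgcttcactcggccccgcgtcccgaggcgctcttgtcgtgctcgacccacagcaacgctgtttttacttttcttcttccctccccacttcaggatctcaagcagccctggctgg
The Top2a stretch holds 4 CHR words and 6 CCAAT boxes, with the nearest CHR word 23 bases before the start. The Cdc20 stretch holds 1 CHR word, 18 bases before the start, and 2 CCAAT boxes. The Kif2c stretch holds 1 CHR word 103 bases before the start and 0 CCAAT boxes. The start listed for Kif2c lies inside the gene as the RefSeq gene table of the same assembly gives it (chr4:117159633-117182624). The Pttg1 stretch holds 0 of either. Its listed start lies inside the gene too (chr11:43420244-43427463). Other starts of Kif2c and Pttg1 were not examined.

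The mitotic kinases were brighter on both tumor arrays than on both normal arrays in all 8 genes tested (29.4% over all genes tested). Their median difference was 1.83. At an unadjusted p under 0.05 7 of the 8 were higher (10.6% over all genes tested). After adjustment 0 passed, where 0.491% of all genes tested were called higher. Of the 8, 5 (Plk1, Bub1, Melk, Aurkb and Aurka) entered the fit only through their tumor arrays, so this median and these counts only describe the genes tested. Plk1, the kinase that prepares centrosomes and drives entry into mitosis, had the largest difference of this group. Its signal was 335 and 178 on the tumor arrays, against 28.6 and 54.3 on the normal arrays. The difference came to 2.22 (SE 0.49, n = 2 in each group, limma adjusted p = 0.127). Cdk1, the kinase that the mitotic cyclins activate, had signals of 849 and 395 on the tumor arrays, against 173 and 224 on the normal arrays. Its difference of 1.49 (SE 0.46, adjusted p = 0.187) was the smallest of this group.

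Among the other kinases, Bub1, a kinase of the spindle checkpoint, had signals of 289 and 150 on the tumor arrays, against 54.7 and 26.1 on the normal arrays, a difference of 2.05 (adjusted p = 0.149). Its relative Bub1b, which blocks the anaphase-promoting complex until kinetochores attach, had a difference of 1.49 (adjusted p = 0.197). Melk, a kinase transcribed with the mitotic genes, had a difference of 2.02 (adjusted p = 0.113), from 204 and 127 on the tumor arrays, against 29.3 and 26.3 on the normal arrays. In the brightest probe sets of Bub1, Bub1b and Melk the lower tumor array lay above the higher normal array. In a dimmer probe set of Bub1b that passed the filter the groups overlapped, and the difference was 0.59. The Aurora kinases act at the spindle poles (Aurka) and at the centromere and midzone (Aurkb), and differed by 1.80 and 1.86 (adjusted p = 0.171 and 0.251). Aurkb had signals of 132 and 113 on the tumor arrays, against 54.4 and 4.65 on the normal arrays, which lay far apart. Nek2, which separates the centrosomes, had a difference of 1.63 (adjusted p = 0.143). Ttk, the checkpoint kinase also known as Mps1, was under the filter and not tested, with signals of 118 and 53.5 on the tumor arrays, against 7.68 and 29.4 on the normal arrays.

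The cyclins and the proliferation marker Mki67 were higher on both tumor arrays, and Foxm1 was not. Mki67, which coats mitotic chromosomes, had signals of 2479 and 866 on the tumor arrays, against 201 and 220 on the normal arrays, which gave a difference of 2.71 (SE 0.56, limma adjusted p = 0.117). Ccna2, cyclin A2, had signals of 627 and 382 on the tumor arrays, against 157 and 167 on the normal arrays, a difference of 1.51 (adjusted p = 0.130). Ccnb2, cyclin B2, had signals of 556 and 311 on the tumor arrays, against 171 and 76.2 on the normal arrays, a difference of 1.72 (adjusted p = 0.183). In these 3 genes the lower tumor array was above the higher normal array. Cdc25c, the phosphatase that activates Cdk1, was under the filter, with 67.6 and 38.2 on the tumor arrays, against 4.70 and 30.7 on the normal arrays.

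Foxm1, the transcription factor that switches on many G2 and M genes, showed overlapping groups in its brightest probe set. Its signal was 122 and 214 on the tumor arrays, against 145 and 199 on the normal arrays. The difference was -0.060 (SE 0.41, adjusted p = 0.950), which turned to 0.14 with median centring and 0.063 with quantile normalization. Its 3 dimmer probe sets had means under the filter signal and did not show one picture. In the dimmest the signal was 20.5 and 21.8 on the tumor arrays, against 1.44 and 4.83 on the normal arrays, and in the next it was 66.8 and 55.4, against 2.11 and 3.59. In the brightest of the 3 the groups overlapped, with 56.9 and 90.8 on the tumor arrays, against 5.03 and 87.1 on the normal arrays.

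Genes of the kinetochore and its checkpoint had a median difference of 1.20 in the 6 tested. After adjustment 0 passed, and at an unadjusted p under 0.05 3 were higher, where 10.6% of all genes tested were. Cenpe entered the fit only through its tumor arrays. Cenpf and Cenpe, a large kinetochore protein and a kinesin that carries chromosomes to the spindle equator, had the largest differences, at 1.98 and 1.96 (limma adjusted p = 0.170 and 0.135). Cenpf had signals of 433 and 208 on the tumor arrays, against 93.8 and 43.0 on the normal arrays. Mad2l1, the checkpoint protein that captures Cdc20, had 1120 and 612 on the tumor arrays, against 370 and 391 on the normal arrays, a difference of 1.09 (SE 0.36, adjusted p = 0.205). In these genes the groups were apart, while in others the second tumor array was near the normal arrays. Cenpa, the histone that marks the centromere, had 642 and 206 on the tumor arrays, against 103 and 183 on the normal arrays, a difference of 1.32 (adjusted p = 0.338). Spag5, a protein of the spindle poles and kinetochores, had 155 and 75.8 on the tumor arrays, against 139 and 48.6 on the normal arrays, and the groups overlapped (difference 0.33, adjusted p = 0.801). Ndc80, which grips microtubules, had a difference of 0.71 (adjusted p = 0.345). Its partner Nuf2 was under the filter with 126 and 51.8 on the tumor arrays, against 6.24 and 2.6 on the normal arrays.

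The genes of anaphase and chromosome separation held some of the largest positive differences as well as the one call. Top2a, topoisomerase II alpha, which untangles sister chromatids, had signals of 1973 and 600 on the tumor arrays, against 105 and 157 on the normal arrays. Its difference came to 2.94 (SE 0.66, limma adjusted p = 0.128). Cdc20, the activator of the anaphase-promoting complex, had 2292 and 876 on the tumor arrays, against 196 and 167 on the normal arrays, a difference of 2.87 (SE 0.53, adjusted p = 0.0986). Another bright probe set of Cdc20 gave a smaller difference of 1.28. Ube2c, the enzyme that hands ubiquitin to that complex, had 1218 and 438 on the tumor arrays, against 128 and 221 on the normal arrays, a difference of 2.02 (adjusted p = 0.181). In all 3 the tumor arrays were far from each other as well, and tumor replicate 1 was the higher.

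Pttg1 fell. It encodes securin, which holds separase, the protease that cuts sister chromatids apart, inactive until the anaphase-promoting complex destroys it. Its signal was 1616 and 1798 on the tumor arrays, against 13529 and 12279 on the normal arrays, or 1707 ± 128 against 12904 ± 884 (SD, n = 2 per group). The difference was -2.91 (SE 0.18, limma adjusted p = 0.0369), a 7.50-fold lower level. All 3 probe sets pointed the same way. Signals of the second were 508 and 337 on the tumor arrays, against 2076 and 2132 on the normal arrays (difference -2.30), and those of the third, the dimmest, were 52.8 and 55.4, against 295 and 447 (difference -2.44). Both groups were tight in Pttg1, unlike the other genes of anaphase. The call ended without normal replicate 1 (adjusted p = 0.643) or normal replicate 2 (adjusted p = 0.655), each of which left 0 genes called on the whole array, and with no intensity trend (adjusted p = 0.0603). Over the alternatives the adjusted p ran between 1.13e-10, without one tumor array, and 0.655. The difference itself stayed between -2.98 and -2.83 when any 1 array was left out.

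**Figure D2:**
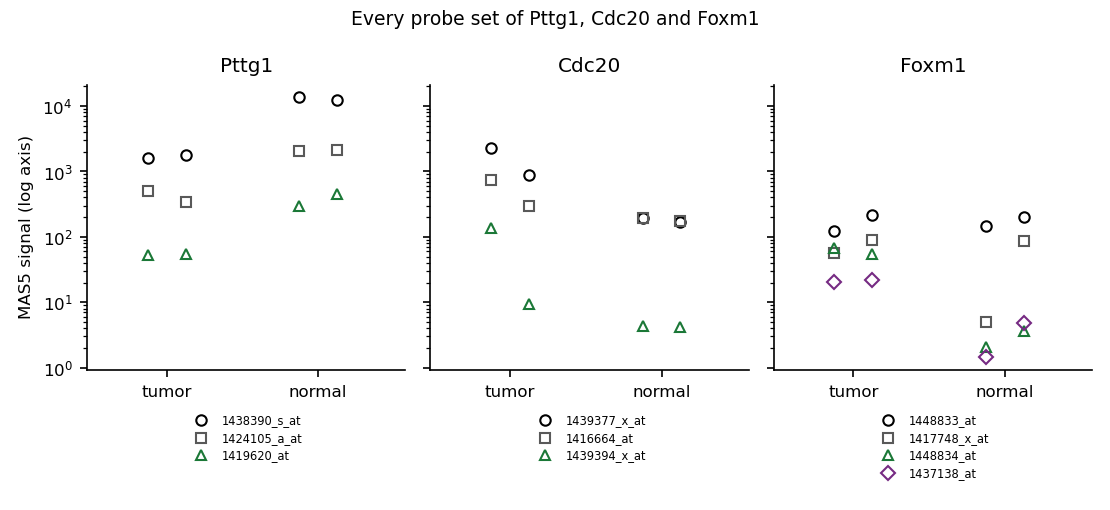
MAS5 signal of every single-gene probe set of Pttg1, Cdc20 and Foxm1 on the 2 tumor arrays and the 2 normal arrays (replicate 1 left, replicate 2 right in each pair), on a log axis. Levels of different probe sets are not comparable, but within each of the 3 probe sets of Pttg1 both tumor points lie below both normal points, and in each of Cdc20 both lie above.

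The chromosomal passenger genes were higher on both tumor arrays. Birc5, survivin, which brings Aurora B to the centromere, had signals of 768 and 278 on the tumor arrays, against 59.4 and 37.9 on the normal arrays, a difference of 2.91 (SE 0.60, limma adjusted p = 0.114). Incenp, the scaffold of the same complex, had 1824 and 703 on the tumor arrays, against 363 and 521 on the normal arrays, a difference of 1.35 (SE 0.54, adjusted p = 0.260). Aurkb, the kinase of the complex, is among the kinases above, and Cdca8, borealin, a further subunit from the other lists, had 743 and 301 on the tumor arrays, against 139 and 142 on the normal arrays, a difference of 1.65 (adjusted p = 0.187).

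All 6 kinesins had both tumor arrays above both normal arrays (29.4% over all genes tested), with a median difference of 1.25. After adjustment 0 passed, and 3 were higher at an unadjusted p under 0.05 (10.6% over all genes tested). Kif2c and Kif11 entered the fit only through their tumor arrays. Kif2c, which takes microtubules apart at the centromere, had the largest difference of any mitosis gene, 2.98 (SE 0.96, limma adjusted p = 0.199), and a wide spread. Its signal was 543 and 135 on the tumor arrays, against 3.82 and 52.2 on the normal arrays, and another probe set, just above the filter, gave 1.74. Kif22, which pushes chromosome arms outward, had 1041 and 752 on the tumor arrays, against 313 and 276 on the normal arrays. Its difference of 1.54 (SE 0.27, adjusted p = 0.0922) came nearest to the threshold among the genes that did not pass. Kif11, which pushes the spindle poles apart, had a difference of 1.44 (adjusted p = 0.191), and its dimmer probe sets gave 0.72 and -0.19. Kif20a and Kif4, motors of the spindle midzone and of chromosome condensation, gave 1.06 and 0.65 (adjusted p = 0.242 and 0.347). Kif23, a motor of cytokinesis, had tumor arrays just above the normal ones, with 365 and 290 on the tumor arrays, against 251 and 259 on the normal arrays (difference 0.33, adjusted p = 0.527). The mean of its probe sets gave -0.24.

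The spindle assembly genes, each read from its brightest probe set, had differences between 1.08 in Hmmr and 1.43 in Nusap1. After adjustment 0 of 5 passed, and 2 were higher at an unadjusted p under 0.05 (10.6% over all genes tested). Nusap1, which bundles microtubules, had signals of 474 and 284 on the tumor arrays, against 126 and 126 on the normal arrays (SE 0.36, limma adjusted p = 0.149). Prc1, which cross-links the midzone, had 575 and 267 on the tumor arrays, against 130 and 233 on the normal arrays, a difference of 1.10 (adjusted p = 0.316). A dimmer probe set of Prc1 gave 2.83. Tpx2, the activator of Aurora A, and Tacc3, which stabilizes spindle fibres, gave 1.23 and 1.29 (adjusted p = 0.269 and 0.217). Hmmr, a spindle protein that also binds hyaluronan, had 263 and 150 on the tumor arrays, against 95.0 and 78.1 on the normal arrays (adjusted p = 0.244). Dimmer probe sets of Hmmr that passed the filter gave 0.93 and 0.17.

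Of the cytokinesis genes, Ect2 had the largest difference and Anln overlapped. Ect2, the exchange factor that activates RhoA at the cleavage furrow, had signals of 432 and 284 on the tumor arrays, against 56.0 and 102 on the normal arrays, a difference of 1.99 (SE 0.43, limma adjusted p = 0.122). Racgap1, its partner at the midzone, had a difference of 1.16 (adjusted p = 0.211). Anln, anillin, the scaffold of the contractile ring, had 1017 and 354 on the tumor arrays, against 411 and 293 on the normal arrays, a difference of 0.77 (adjusted p = 0.503).

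The tumor arrays differed from each other in a common direction. Tumor replicate 1 was above tumor replicate 2 in 35 of the 38 genes tested, where 51.2% of all genes tested were. The median ratio of replicate 1 to replicate 2 was 1.86 over the 38 genes, beside 1.02 over all genes tested. The exceptions were Foxm1, Kif4 and Pttg1. Relative to the normal mean, the median difference was 1.90 on tumor replicate 1 and 1.12 on tumor replicate 2. The normal arrays showed no such order, since normal replicate 1 was the higher in 20 of the 38 genes and the lower in 18. At an unadjusted p under 0.05, 23 genes were higher without tumor replicate 1 and 32 without tumor replicate 2. In those fits 5472 and 6406 of the 13046 genes of the whole array reached that p in either direction, against 2802 with all arrays.

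**Figure D3:**
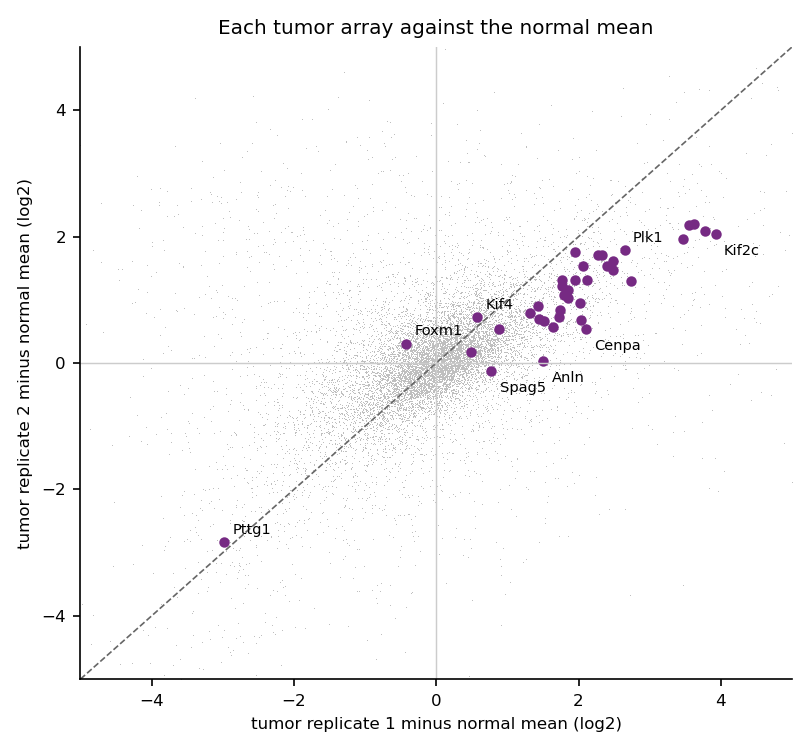
Difference of each tumor array from the mean of the normal arrays, on the log2(signal + 16) scale, with tumor replicate 1 on the horizontal axis and tumor replicate 2 on the vertical axis. Purple points are the 38 mitosis genes tested, grey dots all genes tested (165 of them lie outside the axes), and the dashed line marks equal values. Most purple points lie right of and below the line, and Pttg1 is the one far to the lower left.

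Leukocyte markers had the same order of the arrays. All 8 of 8 general leukocyte markers had both tumor arrays above both normal arrays (29.4% over all genes tested). Tumor replicate 1 exceeded tumor replicate 2 in all 8. This order of the tumor arrays also stood in 8 of 8 macrophage markers, 8 of 8 of plasma and B cells and 5 of 6 of T and NK cells. It stood in 14 of 18 urothelial markers, 5 of 6 fibroblast markers, 5 of 6 fat markers and 3 of 7 of smooth muscle. Genes outside these marker lists had it too, 35 of 37 of DNA replication and 71 of 92 of the other mitosis genes described below. Over all genes tested the share was 51.2%. The summed signal of the leukocyte markers was 57145 and 23581 on the tumor arrays, against 7148 and 6265 on the normal arrays. Cd52, the brightest of them, had a difference of 2.71 (limma adjusted p = 0.137). Of 18 urothelial markers, 3 had both tumor arrays above and 9 had both below (29.4% and 27.7% over all genes tested). Of the 18, 3 were called lower (0.943% over all genes tested). Their summed signal was 111192 and 50936 on the tumor arrays, against 98039 and 148961 on the normal arrays. Krt7, a keratin of simple and urothelial epithelium and the brightest of these, had signals of 19322 and 6708 on the tumor arrays, against 14089 and 23467 on the normal arrays. All 8 macrophage markers had both tumor arrays above both normal arrays (29.4% over all genes tested). The median difference was 2.89 over 8 genes of plasma and B cells and 0.77 over 6 of T and NK cells. It was 0.56 over 6 of fibroblasts and -1.32 over 7 of smooth muscle. Called higher were 4 macrophage markers and 1 of plasma and B cells (0.491% over all genes tested). Called lower were 1 fat marker and 1 of smooth muscle (0.943% over all genes tested). The leukocyte, T and NK cell and fibroblast lists had 0 calls. The part of leukocytes or of epithelial cells in the mitosis signals was not tested. Fat markers, in contrast, were high on the normal arrays. The 6 tested had a summed signal of 36395 and 6132 on the tumor arrays, against 253595 and 268275 on the normal arrays. The lowest fat marker signal was 1.69, on tumor replicate 2. Smooth muscle markers were higher on the normal arrays too. Their summed signal was 17071 and 27101 on the tumor arrays, against 57056 and 45871 on the normal arrays. Pttg1 was higher on the normal arrays as well, but on the tumor arrays it had 1616 and 1798, with replicate 2 the higher. The part of fat tissue, smooth muscle or urothelium in the fall of Pttg1 was not tested.

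Other genes of mitosis, taken from lists chosen by function, had a smaller median difference. Of 108 such genes 92 were tested and 0 passed the limma threshold. Their median difference was 0.29, beside 1.49 for the 38 mitosis genes. Of the 92, 40 had both tumor arrays above both normal arrays and 17 both below (29.4% and 27.7% over all genes tested). At an unadjusted p under 0.05, 16 of the 92 were higher and 5 lower, where 10.6% of all genes tested were higher and 10.9% lower. Whether these counts differ from the shares over all genes was not tested. The 15 subunits and activators of the anaphase-promoting complex had a median of 0.07, with differences between -1.15 and 0.39. Its subunit Anapc13 had signals of 2249 and 3041 on the tumor arrays, against 5951 and 5706 on the normal arrays, a difference of -1.15 (adjusted p = 0.104). The 10 genes of cohesin, the ring that holds sister chromatids together, and of separase had a median of -0.14. Within that list Cdca5, sororin, which protects cohesin until mitosis, had 522 and 196 on the tumor arrays, against 26.4 and 80.8 on the normal arrays, a difference of 2.40 (adjusted p = 0.175).

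Condensin subunits, which compact chromosomes, had a median difference of 0.65 in 7 genes. The other kinetochore genes had 0.49 in 25 genes, and Spc24, a partner of Ndc80, had the smallest p among them. Its signal was 184 and 156 on the tumor arrays, against 35.6 and 3.15 on the normal arrays, a difference of 2.56 (adjusted p = 0.140). The other spindle, kinesin and cytokinesis genes had a median of 0.42 in 35 genes. Cks2, a small partner of Cdk1, had 2736 and 2415 on the tumor arrays, against 786 and 962 on the normal arrays, a difference of 1.55 (SE 0.20, adjusted p = 0.063). Genes of DNA replication, the preceding phase of the cell cycle, had a median of 0.71 in 37 genes tested. Of these 25 had both tumor arrays above both normal arrays and 3 both below (29.4% and 27.7% over all genes tested). At an unadjusted p under 0.05, 10 were higher (10.6% over all genes tested), and 0 passed after adjustment. Rrm2, which makes the building blocks of DNA, had 2569 and 1203 on the tumor arrays, against 233 and 267 on the normal arrays, a difference of 2.74 (adjusted p = 0.080). No test of the difference between these lists was made.

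**Figure D4:**
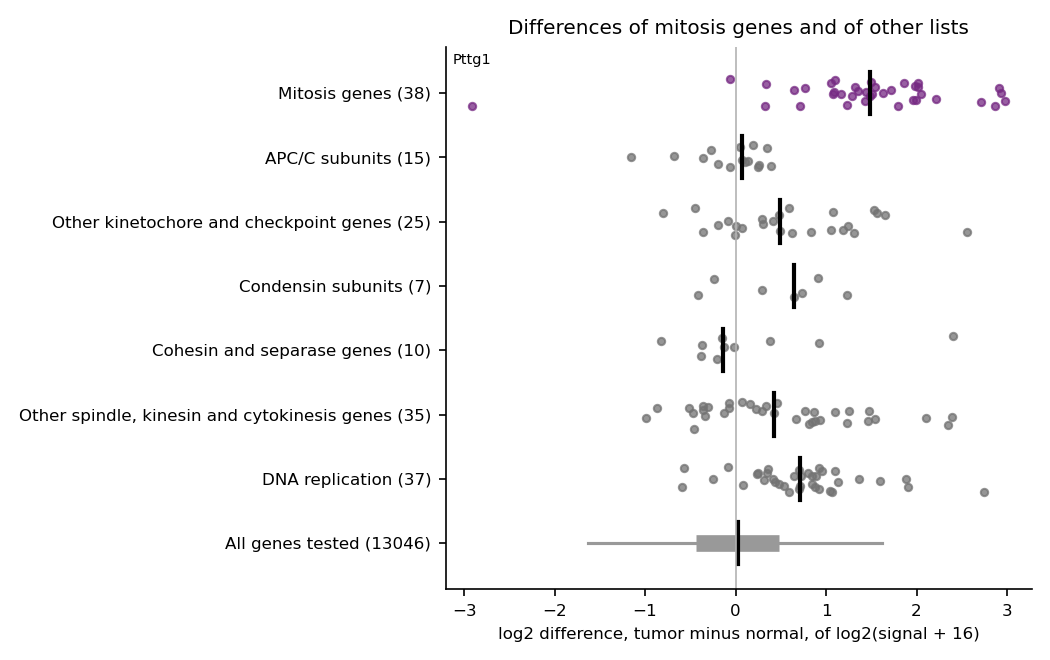
Difference of each tested gene, tumor minus normal, on the log2(signal + 16) scale, with 1 row per list and the number of genes in brackets. Points are genes, black bars are medians, and for all genes tested the thick bar spans the 25th to the 75th percentile and the thin line the 5th to the 95th. The median of the mitosis genes is 1.49, that of the DNA replication genes 0.71 and that of the subunits of the anaphase-promoting complex 0.07.

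Several of these readings rest on probe sets that can share probes with other transcripts. Of the 38 genes tested 9 were read from a probe set whose name marks this (Aurkb, Cdc20, Incenp, Kif22, Kif2c, Nek2, Prc1, Pttg1 and Spag5). Among 16 further probe sets of the tested genes that passed the filter, 14 pointed the same way as the brighter one and 2 the other way, 1 each of Kif11 and Top2a. The one of Top2a had 77.1 and 61.9 on the tumor arrays, against 89.3 and 73.7 on the normal arrays. Pointing the same way did not always mean that the groups were apart. They overlapped in such probe sets of Bub1b, Hmmr and Kif11, with differences of 0.59, 0.17 and 0.72.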

How the data were processed

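Signals of 45101 probe sets on 4 arrays were used. The authors deposited them as linear intensity values, and the submitters' processing notes name MAS5, with no version, detection calls or filter. The mean after trimming 2% at each end was 500 on every array, so no further normalization was applied. Symbols came from the platform annotation and were updated by gene ID. Where a gene had several probe sets of its own, the one with the highest mean of log2(signal + 16) stood for it. The pseudocount of 16 understates changes of dim genes. Genes whose mean reached the 40th percentile, taken over probe sets without the 64 controls, entered a limma 3.58.1 fit (R 4.3.3) with a trend of variance on intensity. It had 2 residual and 2.11 prior degrees of freedom. An exact permutation test of 2 against 2 arrays cannot go below p = 0.333, so none was used. The fit was also run on simulated data with the same noise in every gene, to check that known differences were recovered. The noise of these arrays varies between genes, so that run says nothing about the calls here.

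The mitosis genes, the lists and the alternatives were chosen with earlier results of these data known. Any mitosis gene may be named. Values per array are given at least for the largest, the smallest and the brightest of each role, for genes past the threshold and for those not wholly above normal. Other lists are named by their smallest p, and marker lists by their brightest gene. The promoter of Pttg1 was added after its value was seen. Alternatives were other pseudocounts, filters, scalings and probe set rules, other variance priors, the replicate number as a block, and leaving out each array. Figures were drawn with matplotlib 3.10.9.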

Additional observations from a re-analysis of the deposited data

How the results depend on the processing

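With 2 arrays per group the number of arrays limits every call. The median difference of the mitosis genes lay between 1.09 (mean of probe sets, 31 genes) and 1.69 (median centring) under the alternatives that kept all arrays, and between 1.12 and 1.90 when 1 array was left out. Median centring moved the median of all genes to 0.22, and relative to it the mitosis genes stood at 1.46, as in the values reported. The number past the limma threshold was 1, 0 with no intensity trend, 0 with the replicate block and 2 when every probe set was tested, both of Pttg1. It ran from 0 to 32 when 1 array was left out: 0 without either normal array, 14 without tumor replicate 1 (13 higher) and 32 without tumor replicate 2 (31 higher). A group with 1 array is then assumed to vary like the other group. The number higher at an unadjusted p under 0.05 was 10 of the 16 genes above the 60th percentile, 21 with the replicate block, 27 with no intensity trend, and from 10 to 32 when 1 array was left out. The labels do not say whether same-numbered samples are paired. Deviations of same-numbered arrays correlated at 0.0391 across genes, which does not show a pairing and cannot exclude one. With the replicate block Pttg1 had limma adjusted p = 0.108. Foxm1 turned to 0.14 with median centring and 0.063 with quantile normalization, and ran from -0.43 to 0.31 when 1 array was left out. Spag5 ran from -0.30 to 0.96 and Krt7 from -1.44 to 0.088 in the same way, and Kif23 turned to -0.24 with the mean of its probe sets. The cause of these changes was not tested. No other mitosis gene changed direction under these alternatives, in its brightest probe set or in the mean of its probe sets where that passed the filter. Where every probe set was tested, 1 dimmer probe set each of Kif11 and Top2a pointed the other way (-0.19 in both).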

Other observations

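The neighbours of Pttg1 on chromosome 11 were looked at after its value was seen. Of the 4 nearest protein-coding genes on each side in the RefSeq gene table, 4 were tested and 0 passed the limma threshold, nor did any reach an unadjusted p under 0.05. Slu7, a splicing factor and the next gene, had signals of 809 and 881 on the tumor arrays, against 1182 and 1007 on the normal arrays, a difference of -0.36 (adjusted p = 0.371). Atp10b, the nearest on the other side, had a difference of 0.24 (adjusted p = 0.883), C1qtnf2 one of 0.03 (adjusted p = 0.974) and Ccnjl one of -1.58 (adjusted p = 0.503).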
